A study of Mus musculus with 11 samples.

Results

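The genes described are 38 genes of S phase and DNA replication in mouse LSK cells, the lineage-negative, cKit-positive, Sca-1-positive bone marrow fraction in which blood stem cells and multipotent progenitors lie. They were taken by symbol from a list of replication genes: all 38 were found among the 55291 gene symbols of the count table, and all 38 passed the filter on low counts that left 17183 genes to test. The study compared LSK cells sorted from bone marrow of 4 wild-type mice (WT), 3 mice labelled Phf6 knock out (KO) and 4 mice labelled Phf6R274X Tg (Tg), all of strain C57BL/6. Phf6 lies on the X chromosome and encodes a chromatin protein, in which R274X names a stop codon. The labels describe total RNA of individual mice and give no age, sex or batch. How the knockout was made, and which promoter drives the transgene, is not given in the sources used here.

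DNA replication starts from origins that are licensed before S phase, when Cdc6 and Cdt1 help to load the Mcm2 to Mcm7 ring onto DNA. Cdc45 and the GINS complex turn that ring into an active helicase at the start of S phase, and polymerases, the sliding clamp PCNA and its loaders then copy both strands while chromatin is rebuilt behind the fork. Most of these genes are transcribed in late G1 and S phase under E2F factors, so in a bulk sample their RNA is widely read as a sign of cells in or near S phase. Long-term stem cells are mostly quiescent, whereas the multipotent progenitors that make up most of the LSK fraction divide more often.

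Libraries held between 20990446 and 45632018 counts, and a member had between 333 and 32100 counts in a library. Levels are given as CPM, that is, counts divided by the TMM-scaled library size. Phf6 lay between 110 and 142 CPM in WT, 15.4 and 24.0 in KO and 183 and 278 in Tg, so it followed the labels for the knockout, and counts per gene do not tell a transgenic transcript from the endogenous one. Of the markers of the sorted cells, Kit lay between 579 and 884 CPM and Ly6a, the gene of Sca-1, between 20.04 and 40.6. Xist, made from an inactive X chromosome, lay between 32.6 and 54.2 CPM in every WT and KO library and at no more than 0.324 in Tg. The summed level of 4 Y-linked genes was 129, 134, 0.0634 and 21.1 CPM in WT, 114, 1.74 and 0.0335 in KO and 199, 54.3, 317 and 368 in Tg. WT replicates 1, 2 and 4 and KO replicate 1 thus had Xist and each of the 4 Y-linked genes above 1 CPM, although the labels describe individual mice. KO replicate 2, with Ddx3y at 1.68 CPM and the other Y-linked genes at no more than 0.0300, was kept. Results are therefore also given without the 4 libraries that held both, which leaves WT replicate 3 as the lone WT library. Since Xist separated all Tg libraries from all WT and KO libraries, this difference and the genotype cannot be told apart.

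Per length of annotated exons, the members spanned a wide range of levels in WT. Pcna, the sliding clamp, was highest at 142 ± 5.81 CPM per kilobase (SD, n = 4), followed by Mcm6 at 133 ± 19.3, Mcm3 at 105 ± 18.4, Mcm7 at 92.1 ± 15.98, Mcm5 at 85.2 ± 14.5, Mcm4 at 83.7 ± 13.2 and Uhrf1 at 83.6 ± 12.02. Ranges of 1 SD around the mean overlapped between neighbours in this run of 7 genes, so the ranges do not resolve the order of neighbours. The range of Pcna lay above those of Mcm3 and the genes after it. Ranges also take no account of genes being measured in the same libraries, and a comparison within libraries was not made. The ranges did not overlap between Uhrf1 and the next gene, the DNA ligase Lig1, at 54.2 ± 10.65. Mcm2 lay at 45.5 ± 8.02 CPM per kilobase, the lowest of the 6 subunits of the Mcm ring. At the low end, Exo1 (7.90 ± 1.58), Gins2 (7.19 ± 0.866) and Dscc1 (4.00 ± 0.273) were also detected in every library, and the range of Dscc1 did not reach that of Gins2. In Tg the order at the top differed in value: Mcm6 lay at 137 ± 11.6 CPM per kilobase and Pcna at 117 ± 7.32 (n = 4). In KO the same genes lay at 151 ± 4.48 and 144 ± 9.58 (n = 3). These levels divide by the union of a gene's annotated exons, so a gene with rarely used exons is read too low.

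Since E2F factors act at the promoters of these genes, promoter windows from RefSeq (GRCm38.p6, 250 bases before to 50 after an annotated start) were read for the 31 of 38 members that have one. Mcm4, Gins1, Gins2, Pole, Rfc2, Dscc1 and Exo1 have none in that table. The letters searched for E2F were TTCCCGC and its variant TTCGCGC, together with TTGCCGC and its variant TTGGCGC. On either strand, and with overlapping matches joined, they occurred in 22 of the 31 members (71.0%) and in 10.9% of the 27025 genes with a window of the same length. At least 2 separate matches were found in 10 members and in 1.27% of all genes. CCAAT, on either strand, occurred in 20 of 31 members (64.5%) against 41.1% of all genes, and the CHR letters TTTGAA, known from promoters of mitotic genes, in 3 of 31 (9.68%) against 20.2%. A match describes the letters of the window and does not show that a factor binds. Of the 3 members called lower in Tg, Slbp and Pcna had no E2F match in this window and Clspn had a single match after its start. Cdc45, Mcm2, Pola2, Rfc5, Rpa1, Tk1 and Tyms also had no match and were not called by edgeR.

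Stretches before the start are shown 5′ to 3′ on the gene's strand for Mcm6 (chr1:128359706-128359955, minus strand) and Mcm5 (chr8:75109259-75109508, plus strand), the most abundant ring subunit and the member with the lowest p in KO, with E2F letters in capitals. The third, for Clspn (chr4:126556730-126556934, plus strand), has the CCAAT letters, read on the opposite strand, in capitals.
Mcm6: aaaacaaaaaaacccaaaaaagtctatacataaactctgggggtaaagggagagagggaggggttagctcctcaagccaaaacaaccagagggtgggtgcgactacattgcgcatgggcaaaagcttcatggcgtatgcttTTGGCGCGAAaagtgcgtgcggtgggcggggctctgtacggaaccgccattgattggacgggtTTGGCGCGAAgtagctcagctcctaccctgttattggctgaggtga
Mcm5: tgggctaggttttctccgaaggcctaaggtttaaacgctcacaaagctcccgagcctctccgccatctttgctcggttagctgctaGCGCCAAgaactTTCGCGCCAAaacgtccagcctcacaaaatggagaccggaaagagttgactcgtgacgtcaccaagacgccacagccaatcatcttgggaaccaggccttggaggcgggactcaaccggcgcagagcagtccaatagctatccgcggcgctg
Clspn: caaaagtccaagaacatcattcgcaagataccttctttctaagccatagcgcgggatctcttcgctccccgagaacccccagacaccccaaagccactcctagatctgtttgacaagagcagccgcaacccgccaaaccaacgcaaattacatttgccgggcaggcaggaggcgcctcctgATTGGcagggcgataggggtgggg
In Mcm6 the capitals hold 2 copies of TTGGCGCGAA, in which the E2F letters of both strands overlap, and the longer capitals of Mcm5, TTCGCGCCAA, are the same letters on the other strand. This stretch, picked after the sequences were seen, occurs in the windows of Mcm5, Mcm6 and Mcm7 among the 31 members and in 20 of the 27025 genes (0.0740%). The Clspn stretch ends before its start because the bases that follow lie in an annotated exon.

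Many members were high or low in the same libraries. WT replicate 3 had the highest WT level for 30 of the 38 genes, and the highest of all 11 libraries for 20. WT replicate 4 lay below the WT mean for 37 genes, and WT replicate 2 was the lowest WT library for 21. Among Tg libraries, Tg replicate 4 was lowest for 30 genes and lowest of all 11 for 16. Summed over the 38 genes, levels were 6678, 6034, 7633 and 6046 CPM in WT, 7027, 7005 and 7274 in KO and 6515, 6668, 6295 and 5740 in Tg. The WT libraries therefore enclosed the sums of KO, and Tg replicate 4 alone lay below every WT library. The members took between 0.573% and 0.773% of a library's counts.

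**Figure D1:**
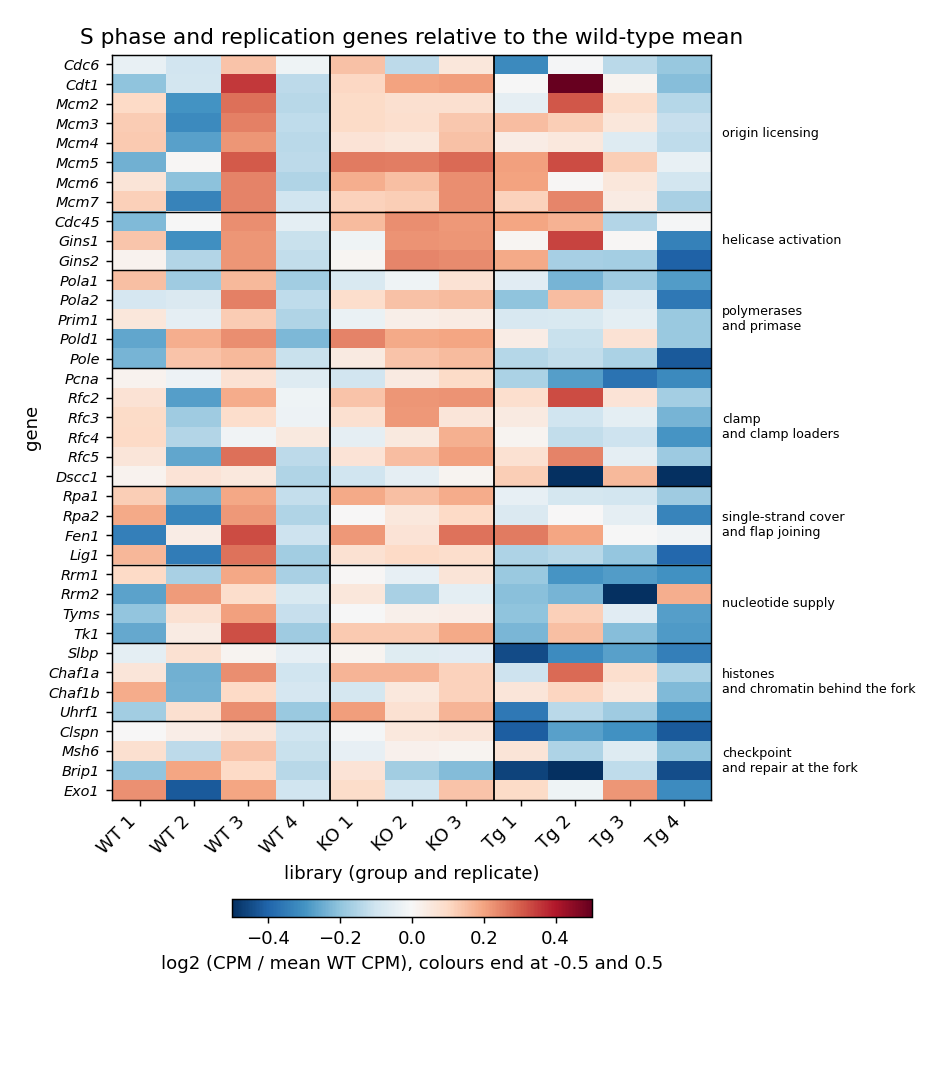
Level of each of the 38 genes (rows, grouped by role) in each of the 11 libraries (columns), as the log2 ratio of its CPM to the WT mean, with colours that end at -0.5 and 0.5. WT replicate 3 is above the WT mean for 37 genes and Tg replicate 4 is below it for 37, while Clspn, Slbp and Pcna are below it in all 4 Tg libraries.

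The spread between mice differed by group and by gene. The median coefficient of variation over the 38 genes was 13.6% in WT, 9.79% in Tg and 3.52% in KO, beside 11.5%, 10.9% and 6.74% over the 9597 tested genes whose mean level reached 10 CPM. In KO the coefficient was 0.509% for Mcm2 (338, 335 and 335 CPM) and 0.786% for Lig1 (244, 247 and 246 CPM). In WT, Mcm2 lay at 339, 257, 383 and 287 CPM, a coefficient of variation of 17.6%. Subunits of the Mcm ring had WT coefficients between 14.6% and 17.6%. The steadiest members in WT were Slbp (4.05%), Pcna (4.08%) and Clspn (4.84%), and Exo1 was the most variable (19.95%). A bulk sample does not tell fewer S phase cells from less RNA per cell, here or in any comparison that follows.

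The comparison of KO with WT asked whether loss of Phf6 changes these genes. No member passed at an adjusted p under 0.05 in either direction by edgeR's quasi-likelihood test, where 0.0175% of all genes were called lower and 0.00582% higher. With DESeq2 also 0 members passed, and 0 had an unadjusted p under 0.05 in edgeR (background 3.75% lower and 3.33% higher). For no gene did the KO libraries lie wholly outside the WT range (background 3.71% lower and 3.79% higher). Fold changes were above 0 for 32 members and below 0 for 6, with a median log2 fold change of 0.10, beside 48.8% above 0, 51.1% below and a median of -0.01 over all genes. All 38 intervals at 95% confidence lay within 0.75 on the log2 scale of no change, and 35 lay within 0.5. The widest reached -0.42 for Dscc1, part of the clamp loader that aids sister chromatid cohesion, and 0.55 for Cdt1.

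By role, all 8 licensing genes, all 3 helicase activators and all 4 genes of single-strand cover and flap joining lay above WT, with medians of 0.13, 0.17 and 0.13. The 4 genes of nucleotide supply and the 4 of checkpoint and repair had medians of 0.02. Mcm5, a subunit of the Mcm ring, lay at 288, 342, 420.5 and 310.4 CPM in WT and at 407, 407 and 414 in KO. The KO values were close to each other and lay between the highest WT library and the rest, and the log2 fold change was 0.27 (SE 0.124, adjusted p = 0.709 by edgeR). Cdc45, the helicase cofactor, lay at 43.7, 50.9, 59.9 and 49.3 CPM in WT and 56.8, 59.9 and 59.2 in KO (log2 fold change 0.20, SE 0.111). Pold1, the catalytic subunit of the lagging-strand polymerase delta, lay at 126, 171, 177 and 129 CPM in WT and 179, 172 and 173 in KO (0.21, SE 0.124). In each the KO libraries sat near or among the upper WT values.

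Rfc2, a subunit of the loader that places PCNA on DNA, lay at 158, 124, 171 and 148 CPM in WT and at 166, 175 and 175 in KO (0.20, SE 0.122). Rpa1, the large subunit of the protein that coats single-stranded DNA, lay at 219.8, 171, 230.5 and 186 CPM in WT and 230.2, 224 and 229.6 in KO (0.18, SE 0.098). Tk1, the thymidine kinase of the salvage pathway, lay at 53.4, 65.6, 79.8 and 56.5 CPM in WT and 69.9, 69.9 and 72.8 in KO (0.15, SE 0.140). WT replicate 3 was the highest WT library for all 3 genes, and the groups overlapped. Of the 6 members with a fold change below 0, Brip1, a helicase of DNA repair, had the lowest at -0.10 (SE 0.124), with 59.2, 77.7, 72.7 and 61.5 CPM in WT and 71.1, 60.0 and 58.3 in KO. The others were Pola1, Dscc1, Rrm2, Slbp and Msh6.

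The tilt above 0 depended on the libraries, and the count of members below 0 also moved with the scaling. With 1 library left out, the median lay between 0.05 (without WT replicate 2) and 0.18 (without WT replicate 3). The count below 0 rose from 6 to 13 without WT replicate 2, 12 without KO replicate 3 and 10 without WT replicate 4. It was 13 with library totals in place of TMM and 12 with upper-quartile factors. Under these scalings the members' median was 0.061 and 0.065. The median over all genes moved down too, to -0.043 and -0.040 from -0.005. The zero point thus shifted for all genes, and these counts do not show a smaller tilt relative to other genes. Without the 4 libraries that held both Xist and Y-linked reads, 28 of 38 members lay below 0, with a median of -0.08. The lone WT library of that fit is replicate 3, which lay above the WT mean for 37 members. The fit also lacks KO replicate 1. This turn therefore cannot be told apart from which libraries remained. Of 10 markers of granulocyte-monocyte progenitors 9 also lay above 0 in KO (median log2 fold change 0.82, 0 called by edgeR), and their part in the tilt was not tested.

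In Tg, 3 members were lower than in WT and none was higher. Clspn, which encodes claspin, the adaptor that carries the checkpoint signal from stalled forks to Chk1, Slbp, the stem-loop binding protein that histone mRNAs of S phase need, and Pcna fell at an adjusted p under 0.05 by edgeR. Over all genes 2.39% were called lower and 2.54% higher. A total of 6 members had an unadjusted p under 0.05 and a lower level (background 11.1%), and 0 a higher level (background 10.9%). The Tg libraries lay wholly below the WT libraries for 4 members (background 5.34%) and wholly above for 0 (background 4.5%). Fold changes were below 0 for 24 members and above 0 for 14, with a median log2 fold change of -0.10, beside 49.2% below, 50.8% above and a median of 0.01 over all genes. These counts are small, and nothing particular to the 38 genes is read from them.

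Clspn (chromosome 4, 126556935 to 126593903, plus strand, GRCm38) lay at 86.8, 88.6, 90.5 and 80.8 CPM in WT, 86.2, 89.9 and 90.4 in KO and 65.2, 71.9, 70.3 and 64.9 in Tg. Every Tg library was below every WT and KO library, and WT and KO overlapped. Its log2 fold change in Tg against WT was -0.35 (SE 0.061, adjusted p = 0.0141 by edgeR), a fall from 86.7 ± 4.20 to 68.1 ± 3.56 CPM. Slbp (chromosome 5, 33634952 to 33652574, minus strand) lay at 121, 132, 127 and 122 CPM in WT, 127, 121 and 121 in KO and 92.3, 101, 104 and 99.3 in Tg. Again all 4 Tg libraries were below the 7 others, with a log2 fold change of -0.34 (SE 0.060, adjusted p = 0.0142 by edgeR), from 126 ± 5.09 to 99.2 ± 5.04 CPM. Of Slbp's annotated exon bases, 7.80% are shared with the gene Gm10459, so its counts could include reads of that gene or lose some to it.

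Pcna (chromosome 2, 132249162 to 132253314, minus strand) lay at 346, 335, 359 and 326 CPM in WT, 320.1, 352 and 365 in KO and 306, 282, 265 and 274 in Tg. The highest Tg library stayed below the lowest WT library, with a log2 fold change of -0.28 (SE 0.071, adjusted p = 0.0470 by edgeR), from 342 ± 14.0 to 282 ± 17.6 CPM. Reads of near-identical copies could be split, but over all libraries the row of Pcna-ps2 held 2.08% as many counts as Pcna and that of Pcna-ps1 held 0. The call of Pcna was lost when any of the 11 libraries was left out (log2 fold change -0.32 to -0.25, adjusted p up to 0.108, without Tg replicate 2). Those of Clspn and Slbp held with each of the 11 libraries left out, with adjusted p up to 0.0493 and 0.0476, both without Tg replicate 1. Without the 4 libraries that held both Xist and Y-linked reads, a fit with a single WT library called 0 members (11 lower and 9 higher over all genes), and the log2 fold changes of Clspn, Slbp and Pcna were -0.41, -0.35 and -0.34. In that fit all 38 members lay below 0 (median -0.24), but its WT library, replicate 3, is the highest WT library for 30 of them. This count therefore cannot be told apart from which WT library remained. With 1 library left out, the median over the members lay between -0.13 (without WT replicate 4) and -0.03 (without WT replicate 3). The count below 0 then lay between 22 (without WT replicate 3) and 32 (without WT replicate 2). With the summed Y-linked level as a covariate the median was -0.02 and 22 members lay below 0.

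**Figure D2:**
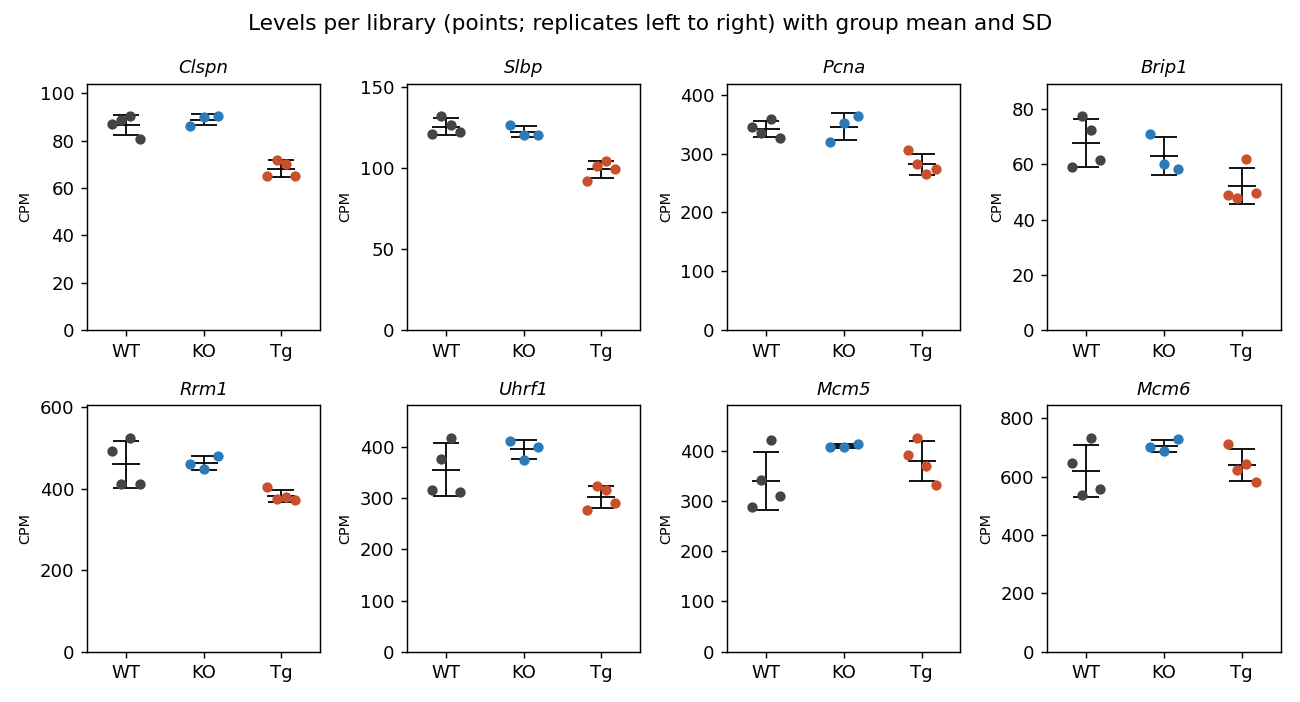
CPM of 8 members in each library (points) with the group mean and SD (bars), on axes from 0. For Clspn, Slbp and Pcna all 4 Tg libraries lie below the lowest WT library, whereas for Mcm5 and Mcm6 the Tg libraries lie within the WT range or, for Mcm5, up to 426 CPM beside 420.5.

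Further members had lower mean levels in Tg and did not pass the test. Brip1 lay at 49.1, 48.0, 62.1 and 49.8 CPM in Tg, beside 59.2 to 77.7 in WT, with the lowest log2 fold change of all members, -0.38 (SE 0.115, adjusted p = 0.0852 by edgeR). Tg replicate 3 stood above the other Tg libraries and inside the WT range, and without it the adjusted p was 0.0329 (log2 fold change -0.47). Rrm1, the large subunit of ribonucleotide reductase, which makes deoxynucleotides, lay at 492, 410.4, 525 and 411 CPM in WT, 461, 447 and 481 in KO and 404, 375, 379 and 373 in Tg. The Tg values were close together and below all other libraries, but WT was spread (log2 fold change -0.26, SE 0.088, adjusted p = 0.111 by edgeR). Uhrf1, which brings the maintenance DNA methyltransferase to new DNA, lay at 316, 377, 419 and 313 CPM in WT, 411, 375 and 400.0 in KO and 278, 325, 315 and 290.0 in Tg. Tg and WT overlapped for Uhrf1 (-0.24, SE 0.1004, adjusted p = 0.194 by edgeR).

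By role, all 5 genes of polymerases and primase and all 4 of nucleotide supply lay below WT in Tg, with medians of -0.11 and -0.16, while 6 of the 8 licensing genes lay above it, with a median of 0.06. The 6 subunits of the Mcm ring had log2 fold changes between -0.02 (Mcm4, SE 0.103) and 0.16 (Mcm5, SE 0.115), and none passed. Mcm5 lay at 392, 426, 370.5 and 332 CPM in Tg and Mcm6 at 711, 622, 643 and 581, beside 646, 537, 734 and 558 in WT. Their intervals reached from -0.09 to 0.41 for Mcm5 and from -0.18 to 0.28 for Mcm6. Cdc6, which recruits the ring to origins, lay at 52.5, 65.1, 59.6 and 57.4 CPM in Tg and 63.8, 61.3, 72.2 and 64.5 in WT (-0.16, SE 0.088).

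Gins2, a GINS subunit, lay at 33.6, 26.2, 26.2 and 22.2 CPM in Tg and 29.8, 26.6, 34.4 and 27.1 in WT (-0.12, SE 0.132). Its exons share 67.3% of their bases with Gse1, so its level is uncertain. Pole, the catalytic subunit of the leading-strand polymerase epsilon, lay at 189.7, 192, 188 and 156 CPM in Tg and 178, 231, 234 and 194 in WT (-0.21, SE 0.101). Lig1 lay at 208, 210.1, 202 and 176 CPM in Tg and 259, 182, 279 and 205 in WT (-0.22, SE 0.123). For both genes Tg replicate 4 was the lowest of the 11 libraries and the other Tg libraries lay among the WT values. Fen1, the flap endonuclease, had a log2 fold change of 0.11 (SE 0.127), and 84.2% of its exon bases are shared with Tmem258 and Gm10143, so this value is uncertain too. Chaf1a shares 52.5% with Ubxn6 (0.04, SE 0.115). In all, 15 members share some exon bases with another gene.

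The genes of the clamp loaders, nucleotide supply, priming and repair described next did not pass in Tg against WT by edgeR. The clamp loader subunits Rfc2, Rfc3, Rfc4 and Rfc5 had log2 fold changes of 0.09, -0.08, -0.12 and 0.03, with SEs between 0.089 and 0.120. Dscc1 lay at 19.3, 12.5, 19.9 and 12.5 CPM in Tg and at 17.95, 18.6, 18.4 and 15.96 in WT (-0.14, SE 0.159), so Tg fell into a pair of libraries above every WT library and a pair below. Rrm2, the small subunit of ribonucleotide reductase, lay at 112, 109.7, 88.3 and 146 CPM in Tg and 107, 149.7, 137 and 122 in WT (-0.18, SE 0.144). It was the member for which Tg replicate 4, lowest for most others, was the highest Tg library. Tyms, the thymidylate synthase, and Tk1 had -0.10 (SE 0.103) and -0.13 (SE 0.130).

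Pola1, Pola2 and Prim1, which make the primers of new strands, had log2 fold changes of -0.18 (SE 0.096), -0.11 (SE 0.113) and -0.10 (SE 0.070) in Tg. Pola1 is the X-linked member and lay at 306, 243, 309 and 244 CPM in WT, 261, 271 and 289 in KO and 265, 235, 243 and 227 in Tg, so Tg and WT overlapped. Rpa1 and Rpa2 both had -0.10 (SE 0.091 and 0.119). Chaf1b, which with Chaf1a places histones on new DNA, had 0.01 (SE 0.103). Msh6, a mismatch recognition protein, had -0.09 (SE 0.083), and the exonuclease Exo1, at 71.1, 65.6, 77.5 and 53.5 CPM in Tg and 77.96, 49.7, 76.3 and 62.1 in WT, had 0.01 (SE 0.148). For these genes the Tg and WT libraries overlapped.

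**Figure D3:**
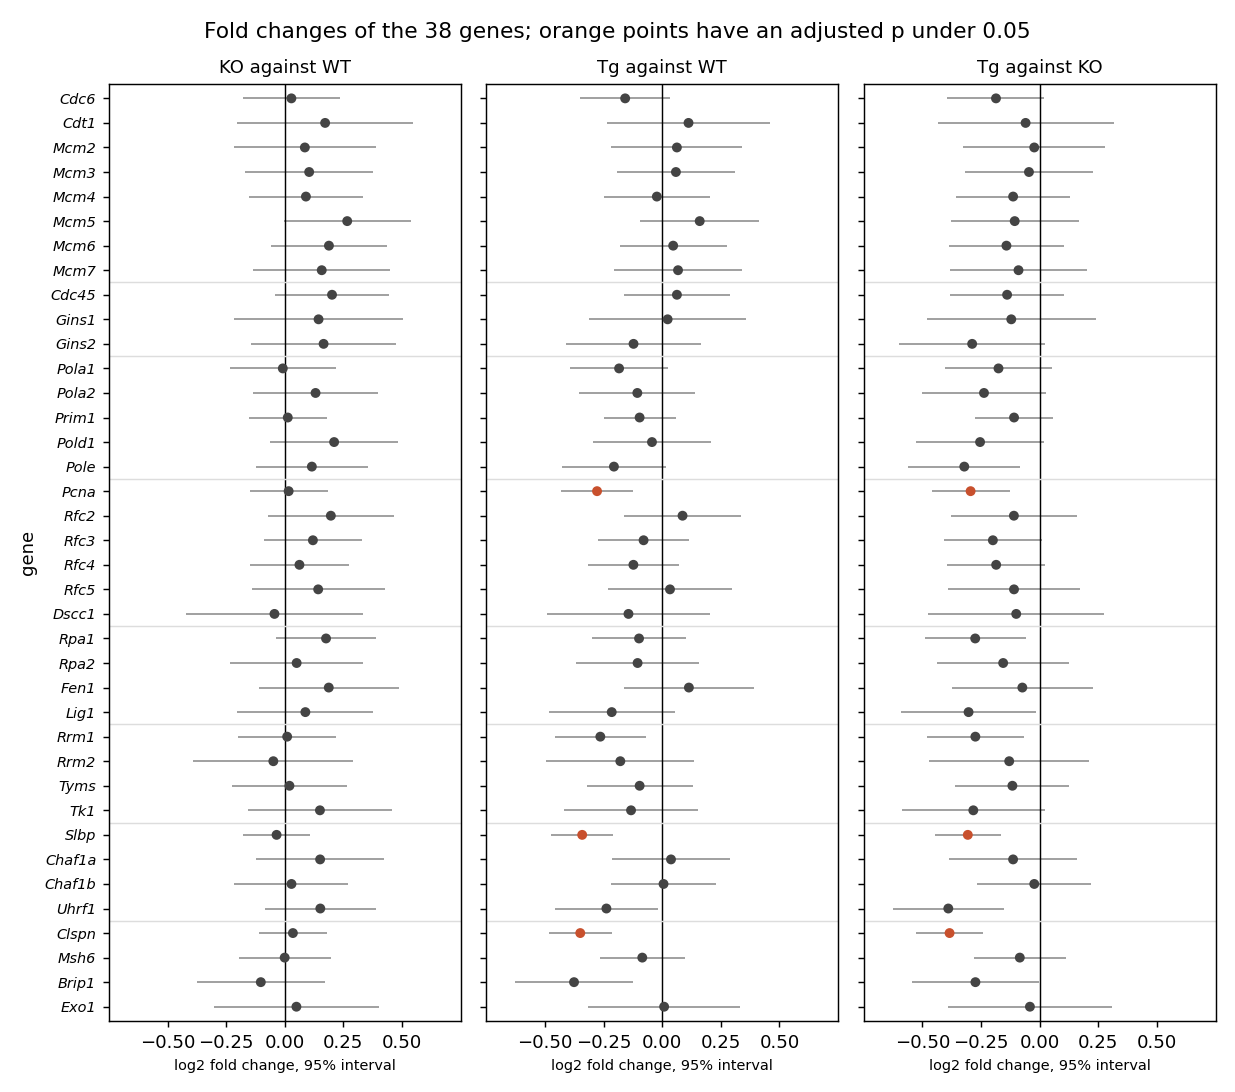
Log2 fold change of each of the 38 genes (points) with its 95% interval (lines) in KO against WT, Tg against WT and Tg against KO, with genes passing an adjusted p under 0.05 by edgeR in orange. No point is orange in KO against WT, Clspn, Slbp and Pcna are orange in the other panels, and all 38 points lie below 0 in Tg against KO.

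The direct comparison of both mutants shares its libraries with the comparisons above, so it is no separate evidence. All 38 members had a lower fitted level in Tg than in KO (background 48% below 0 and 52% above), with log2 fold changes from -0.39 (Uhrf1) to -0.02 and a median of -0.14, beside 0.01 over all genes. Clspn (-0.38, SE 0.066, adjusted p = 0.00900), Slbp (-0.31, SE 0.065, adjusted p = 0.0217) and Pcna (-0.29, SE 0.076, adjusted p = 0.0458) fell at an adjusted p under 0.05 by edgeR, and 0 members were called higher (background 3.06% lower and 2.63% higher). A total of 9 members were lower and 0 higher at an unadjusted p under 0.05 (background 10.9% and 10.7%). Tg libraries lay wholly below KO for 13 members and wholly above for 0 (background 11% and 9.8%). These 13 were Mcm4, Prim1, Pold1, Pole, Pcna, Rfc3, Rpa1, Rpa2, Lig1, Rrm1, Slbp, Uhrf1 and Clspn.

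Uhrf1 had the lowest log2 fold change, -0.39 (SE 0.108, adjusted p = 0.0586 by edgeR), and passed without WT replicate 3 (adjusted p = 0.0334). Of the calls, that of Clspn was lost without KO replicate 2 (adjusted p = 0.0505). Slbp lost its call without KO replicate 1, 2 or 3 or Tg replicate 1 (adjusted p up to 0.0985). Pcna kept its call without WT replicate 2 or 3 and lost it without any of the 9 others (adjusted p up to 0.160). All 38 members stayed below 0 under other scaling factors, and 32 did so without Tg replicate 4. With the summed Y-linked level as a covariate 23 lay below 0 and none was called, and without the 4 libraries that held both Xist and Y-linked reads all 38 lay below 0 (median -0.16) and none was called.

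None of the 3 called genes passed in KO against WT, where the log2 fold changes were 0.03 for Clspn (95% interval -0.11 to 0.18), -0.03 for Slbp (-0.18 to 0.11) and 0.02 for Pcna (-0.15 to 0.18). Over the members, 18 had a fold change above 0 in KO and below 0 in Tg, both against WT, 14 were above 0 in both, and 6 were below 0 in both. The 14 held 5 of the 6 subunits of the Mcm ring, with Cdt1, Cdc45, Gins1, Rfc2, Rfc5, Fen1, Chaf1a, Chaf1b and Exo1. The WT libraries enter both fold changes.

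**Figure D4:**
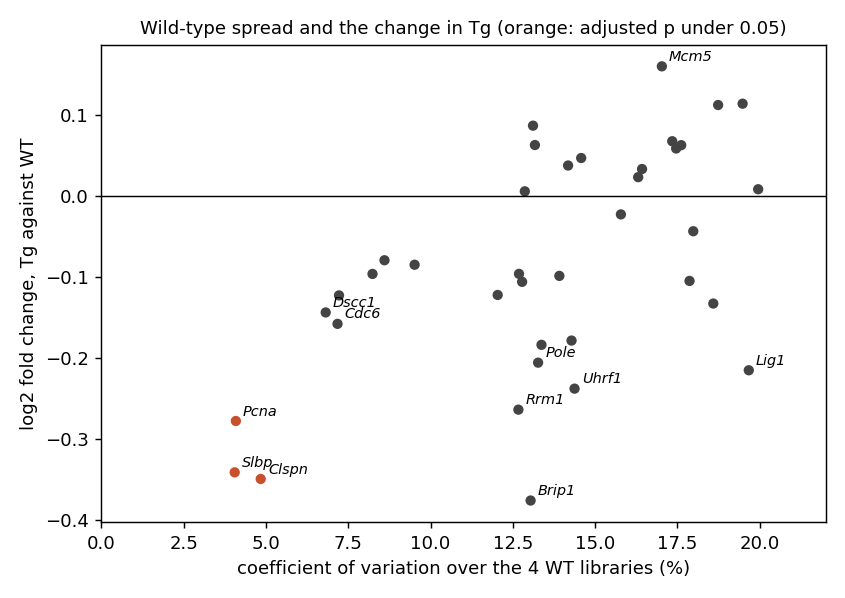
Log2 fold change in Tg against WT (y axis) against the coefficient of variation over the 4 WT libraries in percent (x axis) for the 38 genes, with genes called by edgeR in orange. Slbp, Pcna and Clspn, the called genes, are the 3 with the lowest WT coefficients, while Brip1 at 13.0% has the lowest fold change and was not called.

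The 3 called genes were also the 3 steadiest members in WT, as the plot of spread and change shows. The spread between libraries enters the test, so this overlap is partly fixed by the test and is no separate result. Brip1, with a lower fold change, had a WT coefficient of variation of 13.0% and Rrm1 one of 12.7%. Clspn, Slbp and Pcna had the lowest fold changes in Tg against WT after Brip1, with Rrm1 next.

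The wider pathway was read from 6 lists of 90 other genes of replication and of the control of S phase entry. In KO against WT 57 lay above 0 (median 0.04), and in edgeR 0 were called and 0 had an unadjusted p under 0.05 (background 3.75% lower and 3.33% higher). In Tg against WT 61 lay below 0 (median -0.07), 14 were lower and 2 higher at an unadjusted p under 0.05 (background 11.1% and 10.9%), and the Tg libraries lay wholly below WT for 5 (background 5.34%). After adjustment 1 fell (background 2.39%), Tfdp2, a dimer partner of E2F factors, from 154 ± 14.1 to 121 ± 7.48 CPM (log2 fold change -0.35, SE 0.080, adjusted p = 0.0339 by edgeR). In Tg against KO 65 lay below 0 (median -0.11), 22 were lower and 2 higher at an unadjusted p under 0.05 (background 10.9% and 10.7%), and the Tg libraries lay wholly below KO for 25 (background 11%). After adjustment 1 fell (background 3.06%), Ccna2, the cyclin A gene of S phase and mitotic entry, from 209 ± 9.44 to 157 ± 7.13 CPM (-0.41, SE 0.097, adjusted p = 0.0352 by edgeR). The list of E2F factors and S phase cyclins had the lowest median of the 6 in Tg against WT, -0.19 over 20 genes. It also holds 6 genes that restrain S phase entry, the pocket proteins Rb1, Rbl1 and Rbl2 and the CDK inhibitors Cdkn1a, Cdkn1b and Cdkn1c. Of these 3 lay below 0 and 3 above (median -0.12), and the 14 others had 10 below 0 and a median of -0.19. The 14 still include E2f6, E2f7 and E2f8 and were not split by activating or repressing role. They are therefore not a list of drivers of S phase entry. The 18 other genes of origin licensing and firing had -0.08, with Ticrr, which activates origins, at -0.31 (SE 0.098, adjusted p = 0.0910 by edgeR). In the list of fork repair, Chek1, the kinase that claspin serves, had -0.24 (SE 0.094, adjusted p = 0.159 by edgeR).

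Genes of mitosis are shown beside the members because both follow dividing cells. Of 20 mitotic genes, all 20 lay below WT in Tg, with a median of -0.24, and 6 fell (background 2.39%): Dlgap5 (-0.53, SE 0.077), Nusap1 (-0.46, SE 0.071), Top2a (-0.43, SE 0.083), Kif11 (-0.39, SE 0.064), Kif23 and Tpx2. Their median lies below the -0.10 of the 38 members, and the difference between the lists was not tested. Against KO all 20 also lay below 0 (median -0.32), and 6 were called lower (background 3.06%). KO against WT gave 16 above 0 and a median of 0.06, with 0 called by edgeR and 0 at an unadjusted p under 0.05. Averaged over the mitotic genes, log2 CPM was 6.87, 7.02, 7.09 and 6.89 in WT, 6.95, 7.09 and 7.05 in KO and 6.72, 6.85, 6.61 and 6.68 in Tg, so every Tg library was below every other. Over the 38 members the mean was 6.93, 6.82, 7.12 and 6.82 in WT, 7.004, 7.01 and 7.06 in KO and 6.89, 6.93, 6.86 and 6.70 in Tg, and Tg overlapped WT but not KO.

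**Figure D5:**
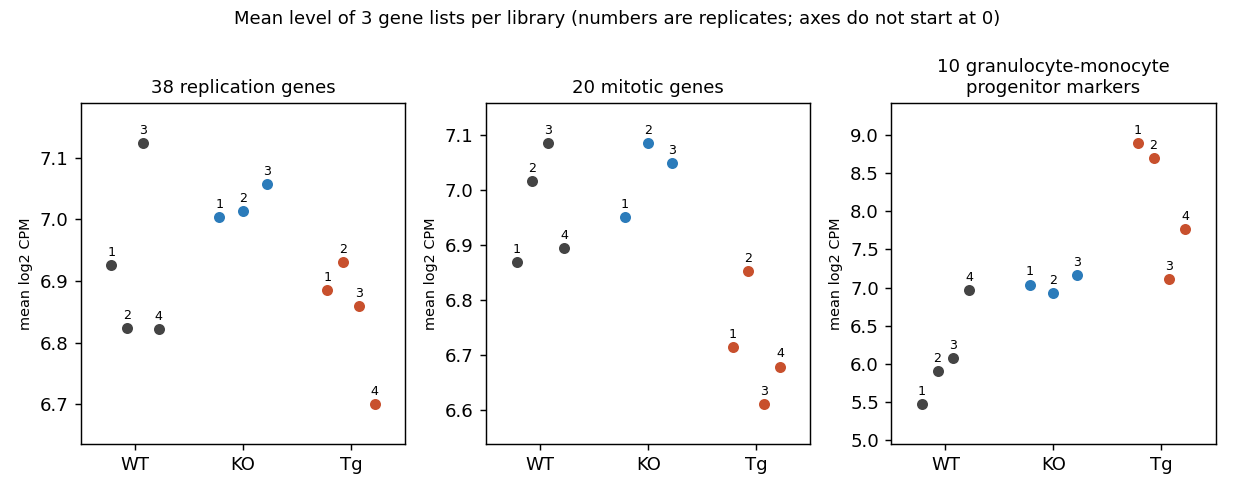
Mean log2 CPM of the 38 replication genes, 20 mitotic genes and 10 markers of granulocyte-monocyte progenitors in each library (points labelled by replicate, axes not from 0). Tg libraries lie below all others for the mitotic genes, overlap WT for the replication genes, and lie between 7.11 and 8.90 for the markers, beside 5.47 to 6.97 in WT.

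Markers of other cells differed between the groups. Beside the markers called in Tg against WT below, 2.54% of all genes were called higher and 2.39% lower. Of 10 markers of granulocyte-monocyte progenitors, 9 lay above WT in Tg and 6 rose (Mpo, Elane, Prtn3, Ctsg, Ms4a3 and Cebpe), with a summed level of 1683 to 3929 CPM in WT, 4177 to 5333 in KO and 5197 to 24521 in Tg. In KO against WT 9 of these 10 also lay above 0 (median 0.82), the KO libraries lay wholly above WT for 6 (background 3.79%), 2 were higher at an unadjusted p under 0.05 (background 3.33%) and 0 were called by edgeR. Of 10 B and plasma cell markers all 10 lay below WT in Tg and 1 fell (Jchain), with sums of 112 to 1071 CPM in WT, 274 to 471 in KO and 40.3 to 137 in Tg. All 10 erythroid markers lay below WT and 2 fell, with sums of 50.0 to 181 CPM in WT, 75.1 to 103 in KO and 12.3 to 62.4 in Tg. Of 9 tested macrophage markers 8 lay below WT and 4 fell, with sums of 47.4 to 249, 42.5 to 162 and 26.4 to 127 CPM. At an unadjusted p under 0.05, 10 B and plasma cell, 5 erythroid and 8 macrophage markers were lower in Tg than in WT. In each of these lists 0 were higher (background 11.1% lower and 10.9% higher). Among 10 T and NK cell markers 8 lay below WT in Tg and 2 above (median log2 fold change -1.88). Against the same background, 5 were lower and 1 higher at an unadjusted p under 0.05. After adjustment 3 fell and Nkg7, which other cells also express, rose. Their sums were 96.0 to 123 CPM in WT, 99.8 to 116 in KO and 128 to 265 in Tg. Nkg7 alone lay at 230, 248, 110 and 157 CPM in Tg, so most of each Tg sum came from this gene. Among 9 tested neutrophil markers 6 lay above WT in Tg and 3 below (median log2 fold change 0.18). Against the same background, 2 were higher and 0 lower at an unadjusted p under 0.05, and after adjustment Lcn2 rose. Their sums were 11.7 to 108 CPM in WT, 34.7 to 69.6 in KO and 49.0 to 599 in Tg. S100a8 lay at 473, 244, 27.6 and 199 CPM in Tg and S100a9 at 113, 64.3, 11.6 and 81.8. Most of each Tg sum thus came from S100a8 and S100a9. Ly6g was at 0 in 6 libraries, all 4 Tg libraries among them, and Marco in 9. Of the 12 LSK and progenitor markers 0 were called in Tg against WT by edgeR. Before adjustment 1 was lower and 0 higher (unadjusted p under 0.05, background 11.1% and 10.9%). KO against WT also gave 0 calls by edgeR. There 3 were lower and 0 higher before adjustment (unadjusted p under 0.05, background 3.75% and 3.33%). In Tg against KO 7 lay above 0 and 5 below, and 3 were higher and 1 lower at an unadjusted p under 0.05 (background 10.7% and 10.9%). After adjustment 1 was called (background 2.63% higher), Procr, a surface marker of blood stem cells. It lay at 11.4 ± 1.79 CPM in KO and 23.2 ± 7.72 in Tg (log2 fold change 1.02, SE 0.255, adjusted p = 0.0413 by edgeR). In WT Procr lay at 19.1 ± 4.73 CPM, so KO lay below WT (log2 fold change -0.74, SE 0.254). The highest Tg library for Procr was replicate 4, at 34.5 CPM. Within Tg, the sums of the progenitor markers were 24521, 21977, 5197 and 9854 CPM and those of the 38 members 6515, 6668, 6295 and 5740, so the lowest library was replicate 3 for the former and replicate 4 for the latter. The part of any of these markers in the levels of Clspn, Slbp and Pcna was not tested.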

How the data were processed

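RNA of LSK cells from 11 mice was sequenced as paired reads. The authors deposited one table of raw counts, not normalised, with a row for each gene symbol. Per the submitters' processing notes they used FastQC, Trimmomatic, STAR and HTSeq with the build mm10. The sources used here name no tool versions, annotation or strand setting, so reads of overlapping genes on opposite strands may not be told apart.

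All 11 libraries (WT 4, KO 3, Tg 4, grouped by their titles) entered a single fit without covariates in edgeR 4.0.16 (R 4.3.3), after filterByExpr and with TMM factors. Each contrast was tested by edgeR's quasi-likelihood test with Benjamini-Hochberg adjustment over 17183 genes, and called at an adjusted p under 0.05. Of the symbols, 24894 had a count of 0 in every library. The fit had 8 residual degrees of freedom and a common biological coefficient of variation of 0.272. Standard errors are the fold change over the root of F, and intervals cover 95%. Reads carry no molecular identifiers.

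Symbols were looked up in GENCODE M21, on the GRCm38 assembly that mm10 names, for coordinates and exon lengths. Members and lists were chosen with earlier results of these data known. Per-library values are given for called members and, in each of the 8 roles, the members with the lowest p in KO and in Tg against WT. Further genes of the lists are those called (up to 4 for a list) or else the 1 with the lowest p. Values of Mcm6, Mcm2, Fen1, Dscc1, Rrm2, Pola1 and Exo1 were added after they were seen. So were those of Ly6g, Marco, Procr, Nkg7, S100a8 and S100a9 among the markers, and the split of the E2F list. The other members are given by fold change.

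Alternatives were DESeq2 1.42.0, limma-voom (limma 3.58.1), RLE or upper-quartile factors, library totals, no filter, a filter of 2 CPM in 3 libraries, robust empirical Bayes, a block for the replicate number, a fit of 2 groups alone, a covariate of the Y-linked level and each library left out. Leaving out the 4 libraries with Xist and all 4 Y-linked genes above 1 CPM was chosen after seeing the data. Figures used matplotlib 3.10.9 under Python 3.11.15.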

Additional observations from a re-analysis of the deposited data

Results flagged for a closer look

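In 76 groups of 4 libraries (38 genes in WT and in Tg), 5 had a lowest or highest library far from the other 3 by Dixon's ratio, and chance alone does so in about 1 in 20 groups. In WT, replicate 3 stood high for Cdt1, at 124 CPM with the next library at 91.0, and for Pola2, at 108 with the next at 86.5. In Tg, replicate 4 stood low for Pole, at 156 CPM with the next at 188. Tg replicate 2 stood high for Tk1, at 70.8 CPM with the next at 55.1, and Tg replicate 3 for Brip1, at 62.1 with the next at 49.8.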

How the results depend on the processing

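Over 12 other settings and 11 single libraries left out, no named member's call turned in direction. The members called lower in Tg against WT, 3 as reported, were 5 with DESeq2 (Brip1 and Rrm1 added), 1 with the replicate number as a block (Clspn) and 0 without the 4 libraries that held both Xist and Y-linked reads. With 1 library left out they ranged from 2 to 3. In Tg against KO, 3 as reported, they were 6 with DESeq2 (Pole, Rrm1 and Uhrf1 added), 1 with the block (Clspn), 0 with the Y-linked level as a covariate and 0 without the 4 libraries, and ranged from 0 to 4 with 1 library left out. In KO against WT 0 members were called under any of these settings. Clspn kept its call in Tg against WT under 11 of the 12 other settings, Slbp under 10 and Pcna under 7. The labels give no shared batch and do not say whether the replicate numbers pair the mice. Deviations of libraries with the same number correlated at -0.25 to 0.10, beside -0.34 to 0.31 for libraries with different numbers. Each correlation rests on a single pair of libraries, so these values cannot decide whether mice were paired.

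Calls over all genes moved by over 1.5 times in places, so the shares given beside the members' counts hold for the settings reported. In Tg against WT, 410 lower and 436 higher became 970 and 942 with DESeq2, 164 and 194 with only the groups compared, 103 and 118 with the block and 582 and 683 with the Y-linked covariate, and 86 lower and 125 higher without Tg replicate 1. In Tg against KO, 526 and 452 became 959 and 963 with DESeq2, 179 and 124 with the block, 261 and 184 with the Y-linked covariate and 178 and 109 without KO replicate 2. In KO against WT, 3 and 1 became 48 and 51 with DESeq2. The cause was not tested. A member had at least 333 counts in each library, and whether greater depth would change a call was not tested.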
